A study of Mus musculus with 4 samples.

Results

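The 53 genes described here encode subunits of the mitochondrial respiratory chain and ATP synthase, together with cytochrome c. They were chosen by symbol. 13 are all the protein-coding genes of the mouse mitochondrial genome, whose symbols start with mt-, and 40 are nuclear genes for subunits of the same machinery. They make up 54 of the 55450 genes listed in the count matrices, because the symbol Atp5o belongs to 2 identifiers. The cells came from the mid-colon of specific-pathogen-free mice, 7 weeks old. The 2 control libraries came from mice on clean water, and the 2 DSS libraries from mice given 3% dextran sulfate sodium (DSS) in the drinking water for 2 days. DSS damages the colonic epithelium and is a standard agent for inducing colitis. The labels name no strain, sex or genetic change, and they do not say whether libraries of 1 group came from separate mice, so errors and p-values measure the spread between libraries, which may be technical.

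The respiratory chain passes electrons from NADH and succinate to oxygen through complexes I to IV, and ATP synthase uses the proton gradient this builds to make ATP. All complexes except complex II join subunits made in the mitochondrion to subunits imported from the cytosol, so the machine depends on transcription of both genomes. Absorptive colonocytes, the mature surface cells of the colon, take much of their energy from the oxidation of butyrate made by bacteria. Mitochondrial transcripts are also the usual measure by which droplets with broken cells are filtered out, so a limit on them acts directly on 13 of the genes studied here.

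The matrices held between 101051573 and 109472082 unique molecular identifiers (UMIs, each a count of 1 captured molecule) per library, in 49851 barcodes. Cells had to have 500 UMIs and 250 genes or more and no more than 25% mitochondrial UMIs. With predicted doublets removed, 42656 cells were kept, with a median of 4729 to 6345.5 UMIs per cell in a library. Between 36 and 52 barcodes were shared by any 2 libraries, under 0.5% of each. Clusters were named from marker genes, without using any mitochondrial gene or member, and a name means that a cluster resembles that type. The 12 classes with at least 30 cells in every library were compared. Libraries differed in makeup: there were 2026 and 4483 colonocytes in the control libraries but 643 and 2597 in the DSS libraries. Values over all cells therefore mix composition and level, and groups were compared within classes.

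The ends of the mitochondrial transcripts come first, because at least 6 of the 13 cannot be told from nuclear DNA by sequence. Insertions of mitochondrial DNA lie in the nuclear genome as unprocessed pseudogenes, and the matrices list them as genes of their own. Of all 91-base windows in the last 500 bases of each transcript, the part a 3-prime kit reads, 99.8% of mt-Co3, 99.3% of mt-Co2 and of mt-Atp6, 98.6% of mt-Nd4l, 97.7% of mt-Nd3 and 94.9% of mt-Co1 occurred unchanged in a transcript of another gene. For mt-Nd2 the share was 9.51%, and for mt-Nd1, mt-Nd4, mt-Nd5, mt-Nd6, mt-Atp8 and mt-Cytb it was 0. Only annotated transcripts were searched, so copies in unannotated nuclear DNA would not be seen. The pairs below, from the GENCODE M21 transcripts of GRCm38, show an identical end, an end that differs, and an end with no annotated copy. Capitals mark the 3 bases at which mt-Nd2 and its copy differ.
mt-Co2, bases 602 to 681: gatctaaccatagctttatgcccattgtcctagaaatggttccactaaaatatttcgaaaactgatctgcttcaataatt
Gm28661, bases aligned to them: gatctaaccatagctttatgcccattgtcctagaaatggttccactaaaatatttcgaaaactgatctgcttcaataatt
mt-Nd2, bases 959 to 1038: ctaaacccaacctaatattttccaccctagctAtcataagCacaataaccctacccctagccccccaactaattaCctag
Gm13339, bases aligned to them: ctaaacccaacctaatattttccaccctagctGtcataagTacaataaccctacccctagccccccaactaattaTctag
mt-Cytb, bases 1065 to 1144: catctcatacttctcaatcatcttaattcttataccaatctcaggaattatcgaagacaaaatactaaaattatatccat

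Most copies lie in 1 block of chromosome 1. Gm28661, at chr1:24614885-24615565 on the minus strand of GRCm38, equals mt-Co2 at 681 of 681 bases, and mt-Co2 itself lies at chrM:7013-7696 on the plus strand as a single exon. In the same block, Gm28437 equals mt-Co3 at 783 of 783 bases, Gm10925 equals mt-Atp6 at 678 of 678, Gm10222 equals mt-Nd4l at 294 of 294, and Gm28438 equals mt-Nd3 at 344 of 345. Gm29216, also there, matches the end of mt-Co1 at 486 of 492 bases. A second copy of mt-Co1, Gm13340, lies at chr2:22588103-22589647 and equals it at 97.6% of 1545 bases. How reads that match both places were counted is not given in the sources used here.

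Few UMIs were assigned to the copies themselves. Gm28661 held 278, 314, 188 and 229 UMIs (throughout, 4 values stand for control 1, control 2, DSS 1 and DSS 2, in this order), against 2144, 1982, 1330 and 2386 for mt-Co2. Gm29216, which holds 94.9% of the end windows of mt-Co1, had 222, 391, 136 and 319, against 319328, 471722, 175290 and 278542 for mt-Co1. A near-complete match of the end was found both for a gene of low counts, mt-Co2, and for one of high counts, mt-Co1. The 2 cases are not alike in extent. Gm28661 covers bases 1 to 681 of the 684 of mt-Co2, and Gm29216 only bases 1054 to 1545 of mt-Co1. The levels of the 6 genes with such annotated copies were treated as uncertain, and whether the copies lowered them was not tested.

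Per kilobase of transcript, the 13 mitochondrial genes spanned a wide range although they are cut from long shared transcripts. Over all kept cells the mean of the 4 libraries was 6271 CPM (counts per 1000000 UMIs) per kb for mt-Cytb, the cytochrome b of complex III, and 3408 for mt-Atp8, a small subunit of ATP synthase. The complex I subunits mt-Nd1, mt-Nd2 and mt-Nd4 stood at 3239, 2431 and 2377, and mt-Co1, the catalytic subunit of complex IV, at 2136. The lowest were mt-Nd4l, mt-Co3 and mt-Co2 at 68.1, 51.3 and 30.1, all with copied ends. mt-Co1, mt-Co2 and mt-Co3 encode the core subunits of 1 complex and yet spanned most of this range. A 3-prime kit reads transcript ends, so division by length can favour short genes in this order. Undivided, mt-Atp8, of 204 bases, stood at 695 CPM, below mt-Nd5 at 934 CPM (512 per kb). The genes mt-Nd4l, mt-Co2 and mt-Co3 were the lowest undivided as well, at 20.2, 20.6 and 40.2 CPM. mt-Atp8 and mt-Atp6 overlap on chrM (7766-7969 and 7927-8607), as do mt-Nd4l and mt-Nd4 (9877-10173 and 10167-11544), so reads in those overlaps cannot be assigned to 1 gene by sequence.

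**Figure D1:**
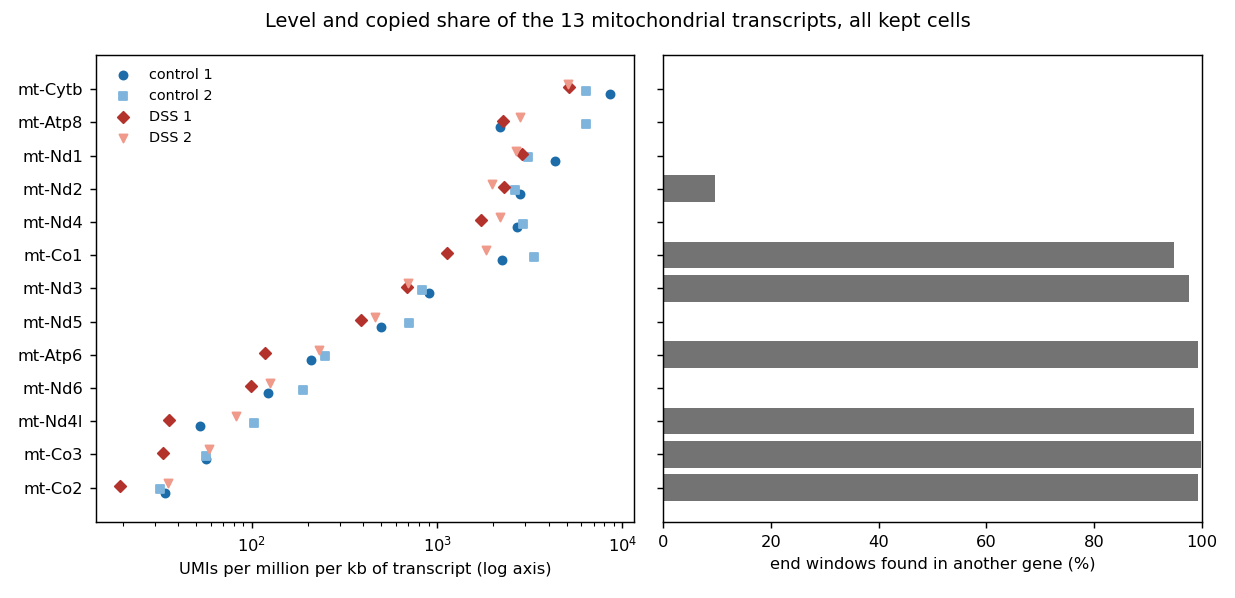
Left, the level of each of the 13 mitochondrial genes in all kept cells of each library, in CPM per kb of transcript on a log axis. Right, the share in percent of 91-base windows in the last 500 bases that occur unchanged in another gene. The 3 genes of lowest level (mt-Co2, mt-Co3, mt-Nd4l) all have bars near 100%, but so does mt-Co1, the sixth highest per kb. The chromosome 1 copy of mt-Co1 covers only its bases 1054 to 1545.

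By complex, the highest and lowest members over all kept cells were as follows, in CPM as mean ± SD of the 4 libraries and not divided by length. In complex I, the NADH dehydrogenase, they were mt-Nd4 (3276 ± 730) and mt-Nd4l (20.2 ± 8.83). In complex II, which oxidises succinate and has nuclear subunits alone, they were Sdhb (200 ± 52.9), its iron-sulfur subunit, and Sdhc (137 ± 29.0), a membrane anchor. Complex III, which reduces cytochrome c, had mt-Cytb (7175 ± 1852) and Uqcrc1 (187 ± 47.8), a core subunit. Complex IV, which reduces oxygen, had mt-Co1 (3301 ± 1429) and mt-Co2 (20.6 ± 4.99). ATP synthase had Atp5b (923 ± 235), its catalytic beta subunit, and mt-Atp6 (137 ± 39.3), which forms part of the proton channel. Cycs, the mobile electron carrier cytochrome c, stood at 431 ± 160. Mitochondrial genes thus held both the highest and the lowest place in complexes I and IV.

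Among nuclear members the counting was less affected by copies. Of 41 identifiers, 9 had any end window in a gene elsewhere in the genome and none had more than 50%. The highest was Atp5h with 46.3%, shared with Gm10250, followed by Ndufs3 with 39.3%, shared with Gm12251. A further kind of sharing is with genes that overlap the member itself, which 6 identifiers had. Windows were matched on either strand, so such a gene can lie on the opposite strand, and strand was not used to tell them apart. All end windows of Uqcrc2 lie in Pdzd9 (36, 18, 14 and 33 UMIs), 22.4% of those of Cox5a in a lncRNA, and 48.0% of those of the rare second Atp5o identifier in Donson. Their levels below are given with that limit.

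Both sets were highest in the epithelium or in muscle. The 13 mitochondrial genes took 4.47%, 3.18%, 3.16% and 2.31% of colonocyte UMIs, and 3.63%, 2.60%, 2.84% and 2.77% in smooth muscle cells. Progenitors of the crypt stood at 2.35%, 2.17%, 2.86% and 1.86%, so these 3 classes overlapped. Plasma cells were lowest, at 0.932%, 1.16%, 0.606% and 0.697%, below fibroblasts in every library (1.61%, 1.26%, 1.24% and 1.02%).

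The 40 nuclear genes were counted against non-mitochondrial UMIs, so that the mitochondrial share does not enter their total. They took 4.41%, 3.11%, 3.76% and 4.02% in colonocytes and 3.43%, 2.59%, 3.66% and 4.01% in progenitors, which did not separate. Goblet cells, the mucus producers, followed with 2.35%, 2.05%, 1.92% and 3.16%. Fibroblasts held 1.03%, 0.814%, 0.681% and 0.767%, and plasma cells 0.946%, 0.840%, 0.545% and 0.668%. Smooth muscle, next to colonocytes by its mitochondrial share, held 2.05%, 1.31%, 1.32% and 1.60%, well below them in each library.

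The balance between the genomes therefore differed by class. In progenitors there were 0.712, 0.880, 0.836 and 0.478 mitochondrial per nuclear member UMIs, and in smooth muscle cells 1.88, 2.10, 2.32 and 1.82, with no overlap. Fibroblasts had 1.61, 1.59, 1.88 and 1.36. Colonocytes had 1.12 and 1.14 in the controls and 0.928 and 0.603 under DSS. The order of most other classes was not fixed, since the libraries of 1 class spanned wide ranges, as in innate lymphoid or NK cells (1.40, 2.33, 1.88 and 1.61).

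**Figure D2:**
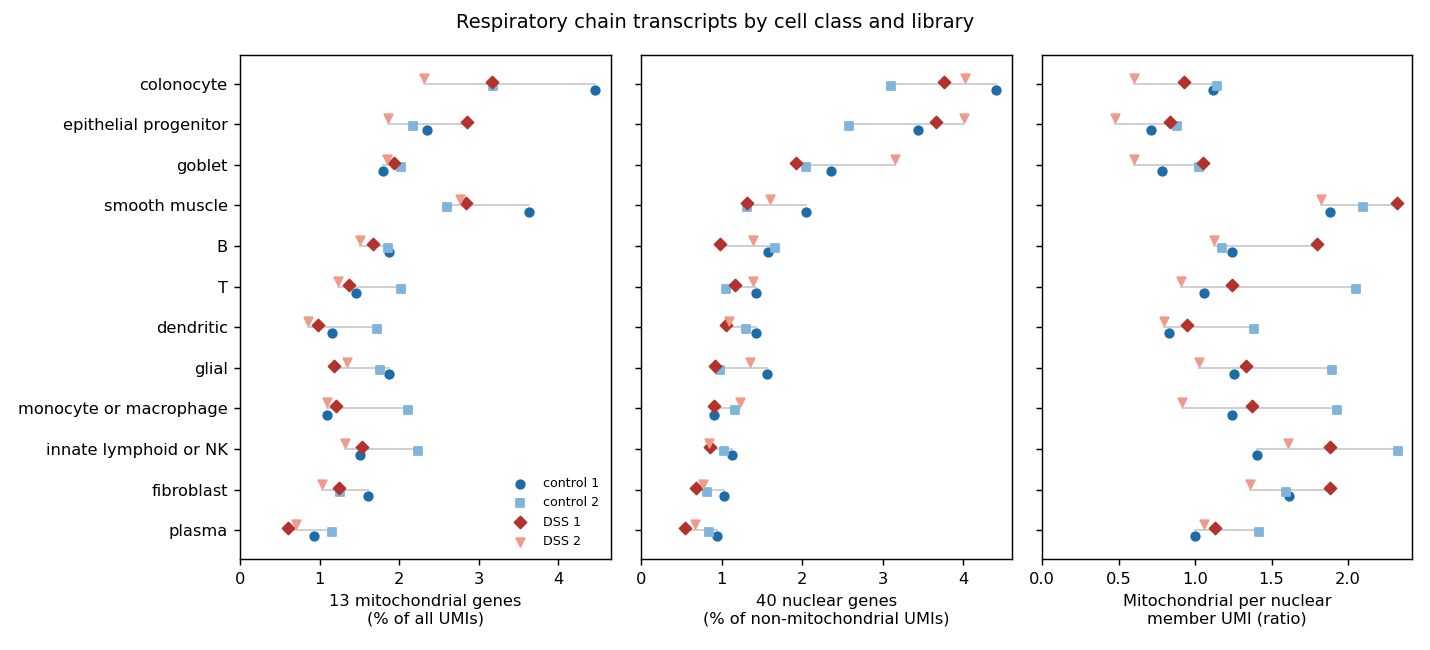
Share of the 13 mitochondrial genes in all UMIs, share of the 40 nuclear genes in non-mitochondrial UMIs, and the ratio of their UMIs, for each of 12 cell classes (rows), with 1 point per library and a grey line over the range. Colonocytes and progenitors are highest by nuclear share, and smooth muscle stands high by mitochondrial share and ratio but not by nuclear share.

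Epithelial cells led for every nuclear member: the mean level, in CPM of non-mitochondrial UMIs, was highest in colonocytes for 21 and in progenitors for 19. It was lowest in plasma cells for 27, in fibroblasts for 8, in innate lymphoid or NK cells for 3 and in monocytes or macrophages for 2. Cycs had the widest range, from 94.7 in fibroblasts to 916 in colonocytes, a ratio of 9.7. Ndufa2, an accessory subunit of complex I, had the narrowest, from 218 to 527, a ratio of 2.4. Against fibroblasts, colonocytes were higher in all 4 libraries for all 13 mitochondrial genes and for 39 of 40 nuclear ones, with a median ratio of 2.86 and 4.42. mt-Co1 was highest among the first, at 5.43, and mt-Nd2 lowest, at 1.47. Among nuclear genes the complex IV subunits Cox5a (10.0) and Cox5b (7.99) and Cycs (9.98) had the highest ratios. The exception was Ndufa4, a complex IV subunit first assigned to complex I, with ratios of 0.81, 0.78, 1.37 and 2.12.

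By complex, the summed nuclear subunits of complex IV reached 21991, 15367, 17085 and 19510 CPM of non-mitochondrial UMIs in colonocytes, against 4301, 3446, 2666 and 3267 in fibroblasts. ATP synthase subunits reached 9374, 6460, 8745 and 8769 against 2643, 2098, 1870 and 2021. Complex II subunits reached 1162, 815, 1108 and 993 against 346, 287, 267 and 264. Colonocytes were higher for each of these complexes in each library.

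The mitochondrial genes did not keep fixed proportions between classes either. mt-Co1 made up 18.5%, 24.8%, 15.4% and 18.6% of the 13 genes' UMIs in colonocytes, 7.56%, 12.7%, 7.61% and 9.77% in fibroblasts and 6.09%, 8.93%, 5.31% and 7.84% in smooth muscle cells. Colonocytes were above both in every library. mt-Nd2 ran the other way, with a mean over libraries of 9.12% ± 0.86 (SD, n = 4) in colonocytes and 18.0% ± 0.91 in smooth muscle cells. mt-Atp8 varied by library: control 2 stood apart with 5.51% in colonocytes, against 1.88%, 3.23% and 3.36% in control 1, DSS 1 and DSS 2, and with 4.54% in fibroblasts, against 1.57%, 2.59% and 2.92%.

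Promoters of the nuclear members were searched for cores bound by known regulators of mitochondrial genes. RefSeq promoters of GRCm38.p6, from 250 bases before to 50 after the start, were at hand for 29 of the 40 genes, 32 promoters in all. The NRF1 core GCGCANGCG, searched on both strands, was in 34.4% of them, against 6.25% of all 32851 promoters. The ETS core CCGGAAG, which GABPA binds, was in 18.8% against 8.86%, the ESRRA core CAAGGTCA in 6.25% against 1.56%, and the YY1 core AAGATGGCG in 3.13% against 1.40%. The NRF1 core is close to a palindrome, so both strands can match overlapping bases, as in Cox6a1. A match describes letters and shows no binding. The stretches below are shown because Cycs had the widest range, Sdhd the lowest fold change of any nuclear member in DSS, and Atp5h the most copied end. Capitals mark the NRF1 match, at 61, 79 and 141 bases before the start.
Cycs, chr6:50566602-50566650, minus strand: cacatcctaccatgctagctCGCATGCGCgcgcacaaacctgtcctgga
Sdhd, chr9:50603900-50603948, minus strand: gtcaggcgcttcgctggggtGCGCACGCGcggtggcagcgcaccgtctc
Atp5h, chr11:115420032-115420080, minus strand: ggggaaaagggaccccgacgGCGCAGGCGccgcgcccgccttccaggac

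The 25% limit on mitochondrial UMIs removed mostly cells classed as colonocytes. Among 47393 cells that passed the other filters, 4737 lay above it. Cells above the limit were given a class by the vote of their nearest kept neighbours on non-mitochondrial genes. In a check the vote returned the own class for 99.4% of the 4976 kept cells it classed. Those classes came from clusters on the same principal components, so close agreement was built in. The check does not cover cells above the limit, which were shallower. Colonocytes above it had a median of 1847 non-mitochondrial UMIs, against 8543 in kept ones. Of 13485 colonocytes, 3736 were above, 27.7% (95% Wilson interval 27.0 to 28.5, counting error only), and they formed 78.9% of all cells above. By library the share was 31.9%, 28.8%, 36.2% and 19.0%. Progenitors followed with 505 of 4258 (11.9%) and goblet cells with 143 of 2233 (6.40%). Of 10575 fibroblasts 44 were above, 0.416% (0.31 to 0.56). By that vote, the limit thus took cells from the class in which most members were highest.

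What lay above the limit was mainly ribosomal RNA of the mitochondrion. In these colonocytes mt-Rnr1 and mt-Rnr2 took 30.9%, 29.4%, 35.2% and 33.3% of UMIs, and the 13 protein-coding genes 10.4%, 6.60%, 6.18% and 7.91%. The 2 rRNAs varied against the 13 genes below the limit as well: in kept colonocytes there were 1.11, 2.31, 1.92 and 1.03 rRNA UMIs per UMI of the 13 genes. Control 2 and DSS 1 were high and control 1 and DSS 2 low, a split that crossed the treatment. A limit on all mitochondrial UMIs therefore acted at different levels of the 13 genes in different libraries.

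Without the limit, the mitochondrial share of colonocytes was 5.23%, 3.59%, 3.60% and 2.51%, and the nuclear share 4.18%, 2.94%, 3.51% and 3.96%. The ratio was 1.45, 1.41, 1.19 and 0.675. Both control values stayed above both DSS values for the ratio, as with the limit. For the mitochondrial share the groups did not overlap with the limit and overlapped without it. Control 2 and DSS 1 nearly met in both cases, at 3.18% and 3.16% with the limit and at 3.59% and 3.60% without it.

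Cells with more mitochondrial UMIs had a lower nuclear share in colonocytes. With cells placed in bands by their mitochondrial UMIs, the nuclear share went from 5.20% of non-mitochondrial UMIs below 5% to 2.38% between 20 and 25% in control 1, from 4.31% to 1.46% in control 2, from 4.17% to 1.83% in DSS 1 and from 4.23% to 2.01% in DSS 2. Above the limit, between 25 and 35%, it was 1.98%, 1.28%, 1.38% and 1.76%. Depth moved with it: in control 1 the median of non-mitochondrial UMIs was 15351 in the lowest band and 744 in the highest. Malat1, a nuclear RNA that stays when cytoplasm is lost, took 1.09% of non-mitochondrial UMIs in the lowest band of control 1 and 9.56% between 35 and 50%. In DSS 1 it took 1.32% and 7.23%. Other epithelial classes also had lower shares in upper bands of at least 20 cells, but did not fall from band to band throughout. Progenitors went from 3.38% to 2.24% in control 1 and from 2.57% to 1.77% in control 2 between the same bands. Between 5 and 10% their share was first higher in control 1 (3.84%), control 2 (2.72%) and DSS 1 (3.56% to 3.78%). In DSS 2 it was lower (4.03% to 3.89%). Goblet cells went from 2.09% to 1.16% in control 2 and from 1.93% to 0.637% in DSS 1 between the bands below 5% and of 10 to 15%. Between 5 and 10% they too were first higher in control 1 (2.36% to 2.42%) and DSS 1 (2.13%), and lower in control 2 (2.04%). Fibroblasts showed no such fall: over bands of at least 20 cells their nuclear share stayed between 1.01% and 1.23% in control 1 and between 0.61% and 0.84% in DSS 1. Malat1 was nonetheless higher in their upper bands, with 2.03% in the lowest and 6.25% between 15 and 20% in control 1. The part of depth and of lost cytoplasm in the colonocyte pattern was not tested. It is a description over cells, which are not replicates.

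**Figure D3:**
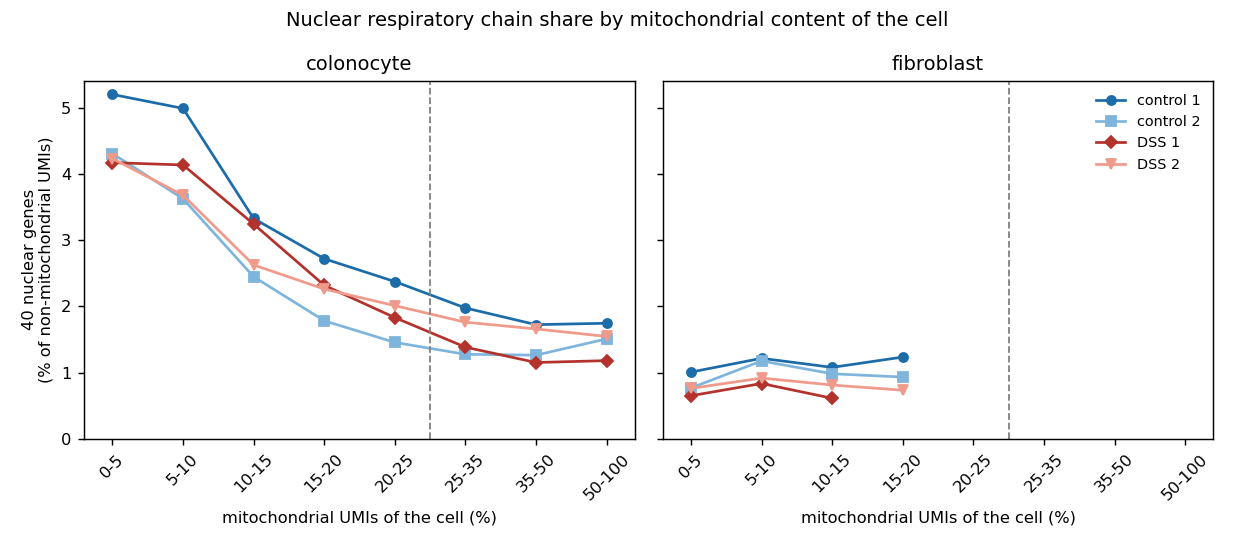
Share of the 40 nuclear genes in non-mitochondrial UMIs (vertical, %) for cells in bands of mitochondrial UMIs (horizontal, %), in colonocytes and fibroblasts, with 1 line per library. The dashed line is the 25% limit. All 4 colonocyte lines descend up to the limit, from between 4.17% and 5.20% to between 1.46% and 2.38%, and the fibroblast lines, drawn for bands of at least 20 cells, show no such descent.

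DSS against control was tested within each class on summed counts, with edgeR's quasi-likelihood test and Benjamini-Hochberg adjustment over all genes of the class. No member passed an adjusted p of 0.05 in any class, over 626 tests of a member in a class. At an unadjusted p below 0.05 there were 6, 0.958% of these tests, against 7.28% of all 119137 tests of a gene in a class. The background share of called genes was 0% in colonocytes (0 of 14419), fibroblasts (0 of 15173), goblet cells (0 of 12947), T cells (0 of 10738), monocytes or macrophages (0 of 10246), smooth muscle cells (0 of 9441), dendritic cells (0 of 8025), glial cells (0 of 5199) and B cells (0 of 3958). It was 1.95% in progenitors (274 of 14050), 0.0475% in innate lymphoid or NK cells (2 of 4209) and 0.00932% in plasma cells (1 of 10732). This fit thus called no gene at all in 9 of the 12 classes, and there the absence of calls among members is not a result about them.

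Without control 1, mt-Co1 and mt-Atp8 passed in dendritic cells, with log2 fold changes of -1.33 (adjusted p = 0.0259, edgeR) and -1.55 (adjusted p = 0.0451, edgeR). The background was then 1.74% (168 of 9632). Control is a single library in that fit, so its spread comes from the DSS libraries and control 2 is assumed to vary like them. Their levels were 1144, 2858, 951 and 1134 CPM for mt-Co1 and 159, 767, 242 and 237 for mt-Atp8. Control 2 alone was high for both, and with all 4 libraries the adjusted p was 1.00.

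In colonocytes all 13 mitochondrial genes had a log2 fold change below 0, from -0.31 to -0.90 with a median of -0.47. The 40 nuclear genes had a median of 0.10, with 29 above 0 and 11 below, and the median of all genes was 0.01. Under both other scalings of the libraries the 13 stayed below 0 and the nuclear split was 28 to 12. The nuclear side depended more on the setting. With a 10% mitochondrial limit its median was -0.05, with 12 above 0 and 28 below. Without control 2 it was -0.09, with 13 above and 27 below. Apart from single clusters, it stayed above 0 in the other alternatives. The median standard error (SE) of a member was 0.32 for mitochondrial and 0.30 for nuclear genes, and none of the 53 passed the test. In sum, the 13 genes took 3.82% ± 0.91 (SD, n = 2) of control and 2.74% ± 0.61 of DSS colonocyte UMIs. The 40 nuclear genes took 3.76% ± 0.92 and 3.89% ± 0.18 of non-mitochondrial UMIs, which overlapped. The ratio was 1.13 ± 0.017 and 0.765 ± 0.230. The smallest p an exact permutation test can give for 2 against 2 is 0.33, so none is given for these sums.

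mt-Co1 had the largest difference. Its level was 8263 and 7884 CPM in the controls against 4861 and 4296 under DSS, so the groups did not overlap. The log2 fold change was -0.90 (SE 0.41, adjusted p = 0.451, edgeR). DESeq2 gave -0.90 (SE 0.25, adjusted p = 0.0193) and called it, among 2.65% of genes called in colonocytes by that tool (316 of 11903). The call on mt-Co1 therefore rests on the tool.

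mt-Nd6, the 1 member encoded on the other mitochondrial strand, stood at 117 and 112 CPM in control and 76.6 and 70.8 in DSS colonocytes, with a log2 fold change of -0.72 (SE 0.20, adjusted p = 0.288, edgeR). The groups were also apart for mt-Atp6 (297, 238, 176 and 220 CPM), mt-Nd4 (5881, 4812, 4166 and 3599) and mt-Nd5 (1515, 1569, 1339 and 1049). They overlapped for the other 8. A gene whose groups are apart has an exact permutation p of 0.33, the smallest possible for 2 against 2. The share of all genes with groups apart was not counted, so these separations are description only. mt-Cytb, the most abundant, stood at 16064, 8815, 11070 and 7201, and mt-Nd1 at 7008, 3570, 5199 and 3297. For these genes, and for mt-Nd2 (3993, 2573, 3217 and 2138) and mt-Nd3 (503, 326, 412 and 289), control 1 was high and control 2 lay below DSS 1. mt-Atp8 was high in control 2 alone (839, 1752, 1023 and 776). mt-Co2 (49.9, 31.0, 29.2 and 34.3), mt-Co3 (96.6, 62.7, 54.9 and 65.5) and mt-Nd4l (29.7, 38.0, 20.7 and 31.5) were low throughout.

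In fibroblasts the differences of the mitochondrial genes were smaller. The 13 had a median log2 fold change of -0.15, with 12 below 0 and mt-Co2 at 0.03. The 40 nuclear genes had a median of -0.27, with 37 below 0. mt-Co1 was again the lowest, at -0.43 (SE 0.31), with 1216, 1591, 940 and 998 CPM. Its groups did not overlap, nor did those of mt-Nd2 (2357, 2131, 2105 and 1669), mt-Nd4 (2217, 2154, 1861 and 1824) and mt-Nd5 (525, 607, 481 and 460). These separations too are description only. mt-Cytb stood at 6626, 3714, 4519 and 3221, mt-Nd1 at 2493, 1420, 1817 and 1390, and mt-Nd3 at 246, 172, 188 and 174. Control 1 was the highest for these genes, as in colonocytes. mt-Atp8 (253, 569, 320 and 298) and mt-Nd6 (38.2, 80.9, 46.2 and 55.0) were highest in control 2. mt-Atp6 (74.8, 72.4, 52.8 and 76.7), mt-Co3 (26.5, 20.4, 15.5 and 24.9), mt-Nd4l (12.2, 14.9, 6.16 and 14.4) and mt-Co2 (12.3, 7.32, 8.73 and 9.98) overlapped between groups. In sum, mitochondrial genes took 1.43% ± 0.25 and 1.13% ± 0.15 of UMIs and nuclear ones 0.923% ± 0.154 and 0.724% ± 0.061. The ratio was 1.60 ± 0.016 and 1.62 ± 0.37, and the groups overlapped. Epithelial transcripts were counted in fibroblasts too, with no marker at 0 in any library. The 10 goblet markers summed to 1129, 957, 570 and 272 CPM of non-mitochondrial UMIs, lower in both DSS libraries, and the 12 colonocyte markers to 769, 4770, 647 and 1905, which overlapped. Their part in the members' differences was not tested.

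Whether the DSS effect differed between colonocytes and fibroblasts was tested as an interaction, with the library as a block. No member passed (0 of 53), and neither did any gene (0% of 16560). The interaction term, on the log2 scale, was below 0 for all 13 mitochondrial genes (median -0.36) and above 0 for 38 of 40 nuclear ones (median 0.28). The lowest adjusted p among members was 0.476, for Atp5g1, which encodes the membrane ring of ATP synthase, with a term of 0.79 (SE 0.30, edgeR).

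Epithelial progenitors and goblet cells lay on the other side of 0. In progenitors all 40 nuclear genes had log2 fold changes above 0 (median 0.38), as did the 13 mitochondrial ones (median 0.20). This held under each scaling tried, but both sets depended on other settings. Without DSS 1 the mitochondrial median was -0.14, with 6 genes above 0 and 7 below. Without DSS 2 it was 0.48, with all 13 above. With no mitochondrial limit it was 0.09, with 11 above and 2 below. Without control 2 the nuclear median was 0.10, with 28 above and 12 below. The 13 genes took 2.35%, 2.17%, 2.86% and 1.86% of UMIs, so the groups overlapped and only DSS 1 lay above both controls. The nuclear share was 3.01% ± 0.60 and 3.83% ± 0.25 of non-mitochondrial UMIs, and both DSS libraries were above both controls. Cycs led, with 351 and 327 CPM in control and 536 and 700 in DSS progenitors, and the groups did not overlap. The log2 fold change was 0.95 (SE 0.28, adjusted p = 0.128, edgeR), and DESeq2 called it (0.97, SE 0.26, adjusted p = 0.00639), among 6.62% of genes called by that tool in progenitors (894 of 13505). mt-Atp6 was at 109, 103, 133 and 158 CPM (0.55, SE 0.23, adjusted p = 0.255, edgeR). The lowest nuclear member was Ndufa4, at 0.09. The progenitors of the groups also differed in marker genes: the 10 progenitor markers summed to 2067, 3259, 527 and 819 CPM of non-mitochondrial UMIs, and the 12 colonocyte markers to 2124, 4402, 7464 and 6230. Colonocyte markers were thus higher and progenitor markers lower in both DSS libraries, and their part in the members' differences was not tested. The DSS cells in this class also depended on the clustering. With joint clustering, clusters named progenitors held 38 and 32 cells of DSS 1 and 37 and 142 of DSS 2, doublets included. The class tested here had 310 and 611. For the controls they held 1358 and 512, and 523 and 317, against 1985 and 847 here. The nuclear median was then 0.25, and 0.30 at resolution 2, with all 40 genes above 0 in both.

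In goblet cells the medians were 0.18 for the mitochondrial and 0.26 for the nuclear genes, with 39 of 40 nuclear genes above 0. Cycs led again, with 246, 254, 294 and 595 CPM (0.91, SE 0.33, adjusted p = 0.312, edgeR), a mean drawn up by DSS 2. The 12 colonocyte markers summed to 1723, 3945, 4763 and 9201 CPM of non-mitochondrial UMIs in goblet cells, higher in both DSS libraries. mt-Co3 stood at 28.0, 24.8, 31.8 and 41.3 CPM (0.57, adjusted p = 0.358, edgeR). In colonocytes, the third epithelial class, Cycs was at 771, 666, 879 and 1049 CPM, a log2 fold change of 0.35 (SE 0.29).

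**Figure D4:**
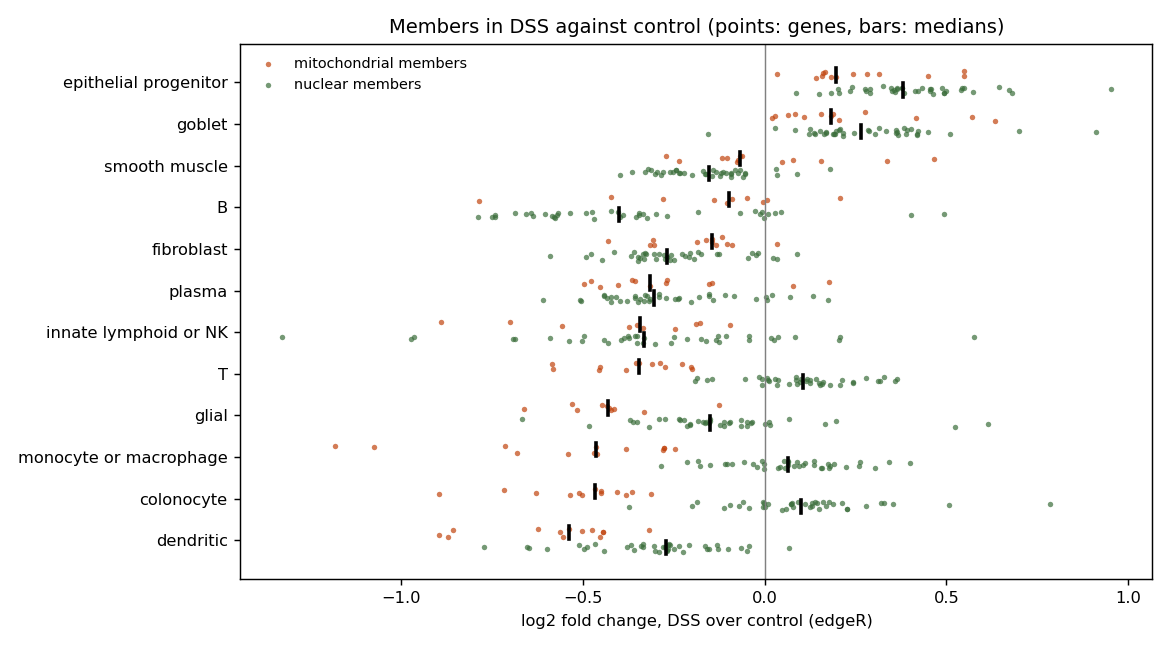
Log2 fold change of DSS over control (edgeR) for each member in each of 12 cell classes, with mitochondrial genes in orange, nuclear genes in green and the median of each set as a black bar. Progenitors and goblet cells have both medians above 0. In colonocytes the orange median is -0.47 and the green one 0.10, and no point passed the test in any class.

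Over the 12 classes the median of the mitochondrial genes was below 0 in 10 and that of the nuclear genes in 7, and the first was below the second in 9. Sets with opposite signs were found in colonocytes, in T cells (-0.34 and 0.11) and in monocytes or macrophages (-0.46 and 0.07). Both were below 0 in dendritic cells (-0.54 and -0.27), glial cells (-0.43 and -0.15), innate lymphoid or NK cells (-0.34 and -0.33), plasma cells (-0.32 and -0.30), B cells (-0.10 and -0.40) and smooth muscle cells (-0.07 and -0.15). In glial, innate lymphoid or NK and B cells 10 of the 13 mitochondrial genes passed the filter on low counts, and 39 of 40 nuclear ones in innate lymphoid or NK cells. All classes of a library share its sequencing run and depth, so these medians are not independent of each other.

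The nuclear members at the ends of each class were not the same genes, apart from a few. Cycs had the largest value also in glial cells (0.61) and fibroblasts (0.09), and Ndufa4 in colonocytes (0.78, SE 0.41, with 336, 184, 332 and 598 CPM) and T cells (0.36). Ndufs1, the largest complex I subunit, led in B cells (0.49) and smooth muscle cells (0.18). Ndufs3, another core subunit of complex I, led in innate lymphoid or NK cells (0.58), with 78.6, 9.79, 64.4 and 28.7 CPM. The complex II subunits Sdhd and Sdha led in monocytes or macrophages (0.40) and plasma cells (0.18), and Atp5h, a stalk subunit of ATP synthase, in dendritic cells (0.07). None of these passed the test.

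At the lower end, Sdhd, a membrane anchor of complex II, stood at 67.3 and 88.1 CPM in control and 28.4 and 31.6 in DSS innate lymphoid or NK cells, a log2 fold change of -1.33 (SE 0.52, adjusted p = 0.999, edgeR). That class had 32, 136, 167 and 190 cells, so its low CPM values rest on few UMIs. Sdhd was lowest in dendritic cells too (-0.77). Sdhb was lowest in fibroblasts (-0.59) and T cells (-0.19), Uqcrb of complex III in plasma cells (-0.61) and monocytes or macrophages (-0.28), and Cox6a1 of complex IV in B cells (-0.79) and smooth muscle cells (-0.40). The complex I subunits Ndufv1 and Ndufa1 were lowest in glial cells (-0.67) and colonocytes (-0.37), and Ndufa4 in goblet cells (-0.16). Subunits of complex II were thus the lowest in 4 classes, again without passing the test.

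The colonocyte difference was set beside the makeup of the class, because the libraries drew their colonocytes from different clusters. Cluster 0 held 1076, 2508, 158 and 339 colonocytes. Cluster 2, led by Car1, Il1rn, Ly6g and Aqp4, held 691, 787, 356 and 1639. Cluster 7, led by Ifit1bl1, Duoxa2 and Duox2, held 259, 1188, 129 and 619. Cluster 2 was thus the largest in both DSS libraries and in neither control library. Depth moved in the same direction, with medians of 6643 and 8341 UMIs per colonocyte in control and 19412 and 14738 in DSS, and Malat1 took 2.45%, 3.82%, 2.16% and 2.34% of non-mitochondrial UMIs.

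The clusters differed from each other in both sets. Cluster 2 had the highest nuclear share in every library, 5.15%, 4.26%, 4.12% and 4.18%, and a mitochondrial share of 3.51%, 2.92%, 2.87% and 2.13%. Cluster 0 had nuclear shares of 3.46%, 2.86%, 3.13% and 3.16% and mitochondrial ones of 5.77%, 3.27%, 3.92% and 3.33%. Cluster 7 had nuclear shares of 2.43%, 1.94%, 2.42% and 3.29% and mitochondrial ones of 5.69%, 3.32%, 3.76% and 3.00%. Control 1 had the highest mitochondrial share in each cluster.

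Within clusters the control and DSS ratios mostly overlapped. The ratio was 1.92, 1.29, 1.44 and 1.17 in cluster 0 and 0.725, 0.734, 0.749 and 0.530 in cluster 2. In cluster 7 it was 2.84 and 2.00 in control and 1.84 and 0.994 in DSS, the 1 cluster of the 3 without overlap. The separation of the groups seen in the pooled colonocytes did therefore not hold within clusters 0 and 2. How much of the pooled difference comes from the mix of clusters was not tested.

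**Figure D5:**
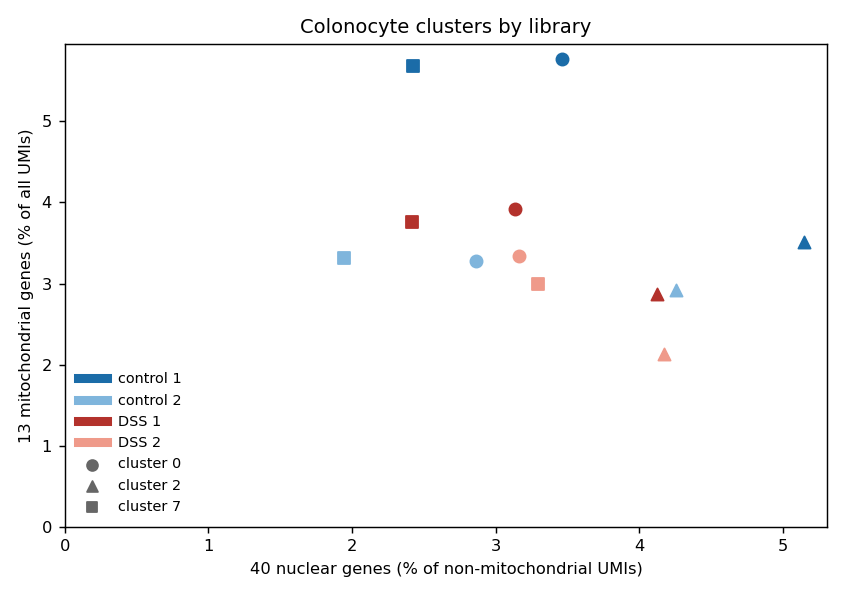
Share of the 13 mitochondrial genes in all UMIs (vertical, %) against share of the 40 nuclear genes in non-mitochondrial UMIs (horizontal, %) for colonocyte clusters 0, 2 and 7, with 1 point per cluster and library. Triangles (cluster 2) lie to the right of all other points, above 4% by nuclear share, whichever the treatment.

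The same check was made for the other epithelial and stromal results. In the larger progenitor cluster the nuclear share was 3.54%, 2.64%, 3.76% and 4.10%, and in the smaller one 3.20%, 2.52%, 2.99% and 3.83%, where DSS 1 lay below control 1. Fibroblast cluster 14 consisted to 43% of predicted doublets before these were removed. Without it fibroblasts held 1.01%, 0.669%, 0.650% and 0.659% nuclear member UMIs, so control 2 and the higher DSS library nearly met.

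In related gene lists 1 gene was called, over all listed genes and classes. Most classes had no called gene of any kind, so the lack of calls there is not a result about these lists. Cox6b2, a complex IV subunit of restricted expression, fell in progenitors, from 25 and 22.9 CPM to 3.42 and 5.65 (log2 fold change -2.29, SE 0.29, adjusted p = 0.0203, edgeR), beside the background of 1.95%. It was 1 of 41 tested among 44 further subunits of the chain, whose median was 0.41 in progenitors, 0.20 in colonocytes and -0.26 in fibroblasts. These medians lay near those of the 40 nuclear members. Its level in colonocytes was 2.70, 4.17, 1.59 and 0.986 CPM.

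None of the other lists had a called gene in colonocytes, progenitors or fibroblasts, and their medians are given in that order. The 83 genes of the mitochondrial ribosome, which translates the 13 mRNAs, had 0.43, 0.07 and -0.27. The 33 assembly factors had 0.28, 0.15 and -0.17, and the 15 genes of the citric acid cycle 0.21, 0.14 and -0.09. The 24 genes of mitochondrial transcription and RNA upkeep had 0.22, -0.13 and -0.02, and the 11 nuclear regulators -0.14, 0.33 and -0.18. The 2 mitochondrial rRNAs had -0.66, 0.50 and -0.01. In colonocytes, then, the medians of the nuclear lists lay above 0 except that of the regulators, and the medians of the 13 mRNAs and of the rRNAs of the mitochondrial genome lay below it.

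Among single genes of those lists in colonocytes, Mrps28 of the small ribosomal subunit was the highest, at 7.62, 4.17, 19.6 and 19.1 CPM (1.67, SE 0.30, adjusted p = 0.205, edgeR). Fastkd2, an RNA-binding protein of the mitochondrion, was at 1.26 and Polg2, a subunit of the mitochondrial DNA polymerase, at -0.89, the ends of their list. In fibroblasts Ttc19, which acts on complex III, was highest among assembly factors (0.28) and Ndufaf6, a complex I factor, lowest (-0.85), with 8.57, 7.51, 4.33 and 3.96 CPM. Malat1 was at -0.52 in colonocytes and 0.22 in fibroblasts, and the 10 genes of the dissociation response had medians of -0.37 and 0.51. The part of dissociation and nuclear RNA in the members' differences was not tested.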

How the data were processed

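The deposited values are whole-number UMI counts per gene and barcode for 2 control and 2 DSS libraries, as the files hold them. The labels name a 3-prime kit, with version 3 for capture and version 2 for library reagents, which was not resolved. Per the submitters' processing notes, counting used Cell Ranger 6.1.1 with GRCm38. Other settings: not given in the sources used here. Members, gene lists and tests were chosen with earlier results of these data known.

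Cells were filtered as in the text. Scrublet, as built into scanpy 1.11.5, marked doublets in each library. Clusters (2000 variable genes without members or mitochondrial genes, 40 principal components, 20 neighbours, leidenalg 0.10.2 at resolution 1) were named from at least 3 markers at 2-fold or more. Sums of counts by class within a library were tested, two-sided, with edgeR 4.0.16 in R 4.3.3 (TMM, filterByExpr, group alone). CPM values are relative to all UMIs of the class, and log2 fold changes are above 0 where DSS is higher. DESeq2 1.42.0, other scalings and limits, single clusters, the replicate number as a block and leaving out each library were alternatives. The test was checked on simulated data. Free RNA in droplets was not estimated.

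Named genes are members called under any test, the 13 mitochondrial genes in colonocytes and fibroblasts, the nuclear genes at the ends of each class, the highest and lowest of each complex and the widest and narrowest in range. Members below an unadjusted p of 0.05 and a few others were added after their values were seen. Copies were found as exact 91-base matches, on either strand, among GENCODE M21 transcripts.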

Additional observations from a re-analysis of the deposited data

Results flagged for a closer look

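In some of the 12 classes the nuclear member share of non-mitochondrial UMIs had both DSS libraries beyond both control libraries, not always in the same direction. These classes are listed because their groups were apart. For 2 against 2 libraries that has an exact permutation p of 0.33. In the other classes the groups overlapped. The DSS minus control difference of the means, in percentage points, was 0.825 in epithelial progenitors, where it was higher. It was -0.437 in B cells, -0.286 in dendritic cells, -0.199 in fibroblasts, -0.227 in innate lymphoid or NK cells and -0.287 in plasma cells. The difference between progenitors and these classes was not tested. In the smaller progenitor cluster alone the groups overlapped.

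Epithelial markers, summed as CPM of non-mitochondrial UMIs, also differed between groups in these classes. In progenitors the 12 colonocyte markers stood at 2124 and 4402 in control and 7464 and 6230 in DSS. Their 10 goblet markers were lower in DSS (5029 and 7656 against 4395 and 4081), although their nuclear share was higher. In the 5 other classes the 10 goblet markers were lower in both DSS libraries: 1695 and 1727 against 1003 and 411 in B cells, 953 and 1046 against 729 and 142 in dendritic cells, 1129 and 957 against 570 and 272 in fibroblasts, 1559 and 3567 against 1303 and 399 in innate lymphoid or NK cells, and 668 and 952 against 312 and 161 in plasma cells. Up to 2 of the 10 were at 0 in a library of these classes. The 12 colonocyte markers were lower in both DSS libraries in plasma cells (1566 and 4388 against 570 and 1524) and overlapped between groups in the other 4. The 10 progenitor markers were lower in both DSS libraries in B, dendritic, innate lymphoid or NK and plasma cells, and overlapped in fibroblasts. Goblet markers were also lower in both DSS libraries in T cells, colonocytes, glial cells and monocytes or macrophages, whose nuclear shares overlapped between groups. The part of these transcripts in the differences was not tested.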

How the results depend on the processing

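Single clusters and fibroblasts without cluster 14 were chosen as alternatives after seeing the data. The number of members called over all classes was 0, was 2 with DESeq2, and ranged from 0 to 2 when each library was left out in turn, with 2 without control 1. With a replicate block it was 0. Library numbers are not known to mark shared animals, and same-numbered libraries correlated at 0.213 to 0.582 in their deviations. The number of progenitor genes called, 274, became 1434 with the replicate block, 894 with DESeq2, 1527 without the filter on low counts, 92 with joint clustering, 77 at resolution 2, and 63 to 549 with 1 library left out. Counts of called genes in other classes depended on the fit as well: 0, or 1 in plasma cells, became 269 in colonocytes, 700 in goblet cells, 331 in dendritic cells, 334 in plasma cells, 131 in B cells and 137 in fibroblasts with the replicate block, and 316 in colonocytes and 419 in goblet cells with DESeq2. None of the genes called with the block was a member.

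The colonocyte mitochondrial share differed by -1.09 percentage points between DSS and control, by -3.01 with all genes of the mitochondrial genome, and by -1.73 to -0.443 with 1 library left out. The colonocyte log2 ratio differed by -0.597, by -0.279 with a 10% limit, by -1.24 as the median over cells, by -0.280 in cluster 0, by -0.211 in cluster 2, by -0.817 in cluster 7, and by -0.908 to -0.286 with 1 library left out. In fibroblasts the share differed by -0.304 (-0.481 to -0.127) and the log2 ratio by -0.0025 (-0.236 to 0.231). The cause was not tested. The interaction called 0 members under all alternatives run. Log2 fold changes of the mitochondrial genes changed sign in 2 of 195 values over alternatives in colonocytes (mt-Atp8 without control 2, mt-Nd1 without control 1) and in 14 of 195 in fibroblasts.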
